A study of Mus musculus with 52 samples.

Results

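Bone marrow of female BALB/c mice that carry the MMTV-NeuT transgene was compared between 24 and 12 weeks of age. The comparison took every array labelled NeuT+ 24 weeks (6 mice) and NeuT+ 12 weeks (9 mice), 15 of the 52 arrays of the series, each from a separate mouse. The NeuT transgene is the rat Erbb2 oncogene in an activated form, placed under the mouse mammary tumor virus promoter, which drives transgenes mainly in mammary epithelium and not by design in the marrow. All 6 mice of 24 weeks were graded as advanced carcinoma. Of the 9 mice of 12 weeks, 8 were graded as early carcinoma and 1 as severe dysplasia. The labels give a tumor burden, with no unit, of 20296073 to 156499187 (median 75241613) at 24 weeks and of 39293 to 798790 in the 6 mice of 12 weeks that have one. Age and tumor stage moved together in NeuT+ mice and cannot be told apart in them. Marrow of NeuT- siblings, which lack the transgene, was measured at 24 weeks (5 mice) and 12 weeks (9 mice) and gives the change over the same ages. The labels grade these siblings as normal, apart from 1 at 12 weeks that is labelled with mild or moderate dysplasia.

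Bone marrow is the site where granulocytes, monocytes, red cells, platelets and B cells are made from shared progenitors. Mammary tumors of mice can release cytokines such as G-CSF, which push marrow output towards neutrophils and their immature relatives. B-cell and red-cell precursors share the same niches of stromal, bone-forming and vascular cells. An array of whole marrow averages over all of these cells, so that fewer cells of a type and less RNA per cell cannot be told apart here.

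Between 14578 and 15818 probes were detected on the 24-week arrays and between 15455 and 16123 on the 12-week arrays. The interquartile range of relative log expression, which measures how far an array lies from the typical profile, was 0.395 to 0.712 at 24 weeks against 0.207 to 0.377 at 12 weeks. Replicate 2 at 24 weeks stood farthest apart. Of the 29 arrays of both genotypes at these ages, 28 were closest to a group of their own age, and the exception was NeuT- replicate 1 at 24 weeks, which lay closest to the 12-week NeuT- group. The animal numbers begin with 2 digits that the labels do not explain, called the number series here. Series 13 holds 4 of the 24-week mice and no 12-week mouse, series 11 and 15 hold 3 of the 12-week mice each and no 24-week mouse, and only series 12 holds both ages, with 2 mice of 24 weeks and 3 of 12 weeks. The main results are therefore given also for series 12 alone (2 against 3 mice) and for the arrays outside it (4 against 6). Whatever series 13 shares apart from age cannot be told apart from age outside series 12. Defining marrow transcripts were present at both ages: Mpo, Elane, Ltf, S100a8, Klf1, Hba-a1 and Pf4 were detected on all 15 arrays. Krt8, a marker of epithelium, and Erbb2 itself were detected on none, and the markers Cd79a, Ly6g and Epcam are not analysed here.

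Marrow changed widely between the 2 stages. Of 11309 genes tested with limma, 4486 (39.7%) differed between 24 and 12 weeks at an adjusted p under 0.05. They divided almost evenly into 2199 higher (19.4%) and 2287 lower (20.2%) genes. Large changes leaned downwards, with 160 genes over 2-fold higher and 395 over 2-fold lower. In 1594 genes (14.1%) the 24-week and 12-week values did not overlap. The median log2 fold change over all genes was 0.0038. Each gene list below is read against the background shares of 19.4% higher and 20.2% lower. Without replicate 2 at 24 weeks, 4110 genes (36.3%) were called.

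Most but not all genes called outside series 12 changed in the same direction within it, and fewer of them were called there. The arrays outside series 12 called 4039 genes (35.7%), and 3288 of these (81.4%) changed in the same direction in series 12, against 67.6% of all genes. Series 12 alone called 2663 genes (23.5%), and 1429 genes were called in both sets with the same sign. A further 119 genes were called in both with opposite signs. Across genes, which are not independent replicates, the log2 fold changes of the 2 sets had a Pearson correlation of 0.56. Among the 613 genes called and over 2-fold changed outside series 12 the share with the same sign was 76.2%. It was 76.3% for all genes changed that much there, called or not. Of the 613, 297 were called in series 12 with the same sign and 57 with the opposite sign. The median log2 fold change of the 613 was -1.2 outside series 12 and 0.0456 within it.

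**Figure D1:**
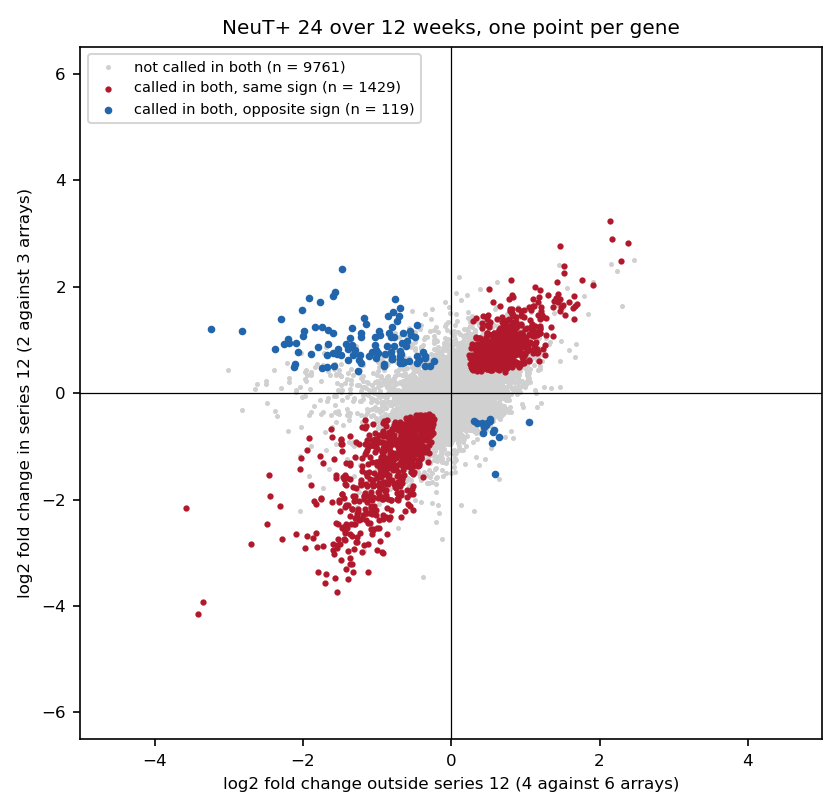
Log2 fold change of NeuT+ marrow at 24 over 12 weeks in series 12 (vertical axis, 2 against 3 arrays) and outside it (horizontal axis, 4 against 6 arrays), with a point for each of 11309 genes. Red points mark the 1429 genes called in both sets with the same sign, and blue points the 119 genes called in both with opposite signs, most of them lower outside series 12 and higher within it.

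Of the 119 genes called in opposite directions, 104 were lower at 24 weeks outside series 12 and higher within it. Pdpk1, which encodes a kinase that activates AKT, averaged 7.92 on the log2 scale in the 24-week NeuT+ mice of series 13, against 10.3 in the 24-week NeuT+ mice of series 12. The 24-week NeuT- mice of series 13 averaged 7.97, and the 1 24-week NeuT- mouse of series 12, replicate 1, the array closest to the 12-week group, stood at 10.3. The cyclin gene Ccnd2 gave the same picture, at 7.97 in series 13 and 10.02 in series 12 in NeuT+ mice of 24 weeks, and at 8.55 and 10.2 in NeuT- mice of 24 weeks. In 117 of the 119 genes, the 24-week NeuT- mice of series 13 differed from the 12-week NeuT- mice in the same direction as the NeuT+ mice outside series 12. That share, 98.3%, compares with 97.5% of the genes called outside series 12 and 80.2% of all genes. The difference between the age change within series 12 and the age change outside it, tested directly in a comparison added after the data were seen, was called for 936 genes (8.28%), of which 501 (4.43%) were higher and 435 (3.85%) lower in series 12. At 6 weeks, an age outside this comparison, levels also differed between number series. Pdpk1 averaged 7.845 in NeuT- and 8.651 in NeuT+ mice of series 17, against 9.473 and 9.775 in series 12 and 10.43 and 10.26 in series 14. Ccnd2 averaged 8.561 and 9.247 in series 17, against 9.793 and 9.861 in series 12 and 10.31 and 10.38 in series 14. What a number series stands for was not tested.

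**Figure D2:**
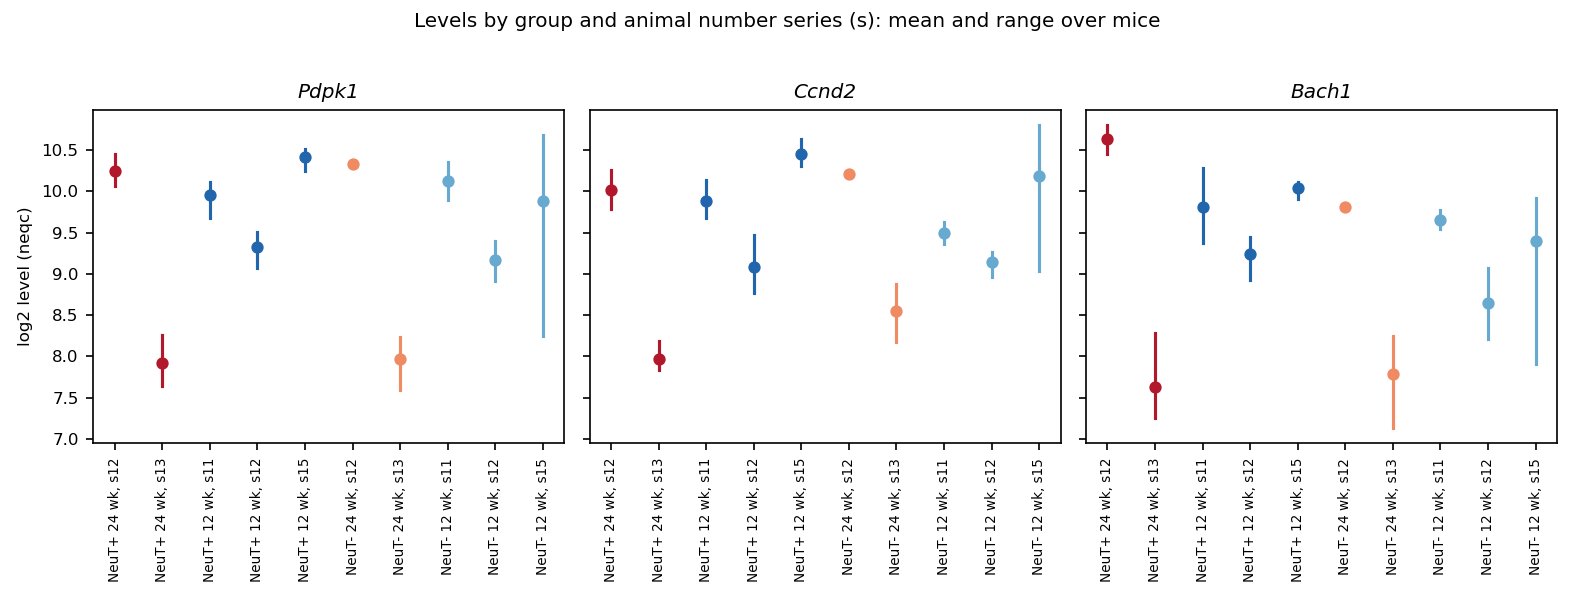
Log2 levels of Pdpk1, Ccnd2 and Bach1 by group and animal number series (s), with the mean as a point and the range over mice as a line. NeuT+ and NeuT- mice of series 13 at 24 weeks lie low together, while the 24-week mice of series 12, 2 NeuT+ and 1 NeuT-, lie among or above the 12-week mice.

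The highest fold changes were those of Cxcr1, Prok2 and Wfdc17. Cxcr1, a receptor by which neutrophils sense CXC chemokines, ranged from 8.27 to 11.1 (median 8.82) on the log2 scale at 24 weeks and from 5.88 to 7.27 (median 6.34) at 12 weeks. The groups did not overlap, and Cxcr1 was 5.77-fold higher (2.53 ± 0.37 SE on the log2 scale, adjusted p = 7.05e-05). It was not detected on 12-week replicate 1 (6.28) at least, and its 12-week median (6.34) lies close to that value. This fold therefore rests in part on values near background. Prok2, a secreted peptide that neutrophils release, ranged from 10.3 to 13.4 (median 11.2) at 24 weeks and from 8.34 to 9.86 (median 8.78) at 12 weeks. It was 5.67-fold higher with no overlap (adjusted p = 0.000108). Wfdc17, a small secreted protein of activated myeloid cells, ranged from 11.3 to 14.1 (median 12.3) at 24 weeks and from 9.32 to 10.9 (median 9.79) at 12 weeks. Its groups did not overlap either, and the fold was 5.56 (adjusted p = 7.27e-05). Upp1, an enzyme that breaks down uridine, was 5.13-fold higher (adjusted p = 2.90e-06) and ranged from 11.5 to 13.1 at 24 weeks and from 9.33 to 10.4 at 12 weeks, again without overlap. Ambp was detected on 5 of 6 arrays at 24 weeks and on none of 9 at 12 weeks, which makes it at least 2.37-fold higher (adjusted p = 5.36e-05). Where a gene was on no array of a group, the bound sets the brighter group's mean against the higher of the lowest detected signal and the gene's own signal on each dim array.

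The remainder of the 12 highest genes were Mcam, Cstdc6, Ighg1, Gnb5, Oas3, Oasl2 and Stfa2, between 4.78-fold and 3.69-fold higher. On 12-week replicate 1 at least, Cstdc6 (5.07) and Gnb5 (5.96) were not detected, so that their folds rest in part on values near background. Cstdc6 and Stfa2 are stefin A genes, cysteine protease inhibitors that mature neutrophils express. They have near-identical neighbours, as does Ighg1, the constant region of an IgG heavy chain, so that which copy moved is uncertain. The 12 were chosen on these same arrays, so that their counts in parts of them are a description. All 12 genes were higher in series 12 as well, where 7 were called (10.2% of all genes), and all 12 were called outside it (18.7% of all genes). Leaving out replicate 2 at 24 weeks kept all 12 called. That array held the highest value of Cxcr1 (11.1), Ambp (9.56), Cstdc6 (10.1) and Stfa2 (15.4), far above the other 24-week arrays. Of the 12, 10 did not overlap between ages (14.1% of all genes), and the exceptions were Mcam and Ighg1. All 12 were also higher at 24 weeks in NeuT- marrow, 9 of them called against 2.25% of all genes, and none differed between the genotypes by the direct test.

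The genes that fell most were led by bone matrix. Bglap2 ranged from 5.31 to 8.94 (median 6.79) on the log2 scale at 24 weeks and from 8.50 to 12.3 (median 10.6) at 12 weeks. Bglap, the osteocalcin gene of bone-forming osteoblasts, ranged from 4.85 to 8.10 (median 5.96) at 24 weeks and from 7.76 to 11.3 (median 9.54) at 12 weeks. Each group pair overlapped slightly, at the high end of the 24-week arrays. The 24-week median of Bglap lies below 6.29, a level at which Rab27b was not detected on 12-week replicate 1. The fold of Bglap therefore rests in part on values near background. Bglap2 was 12.6-fold lower (log2 fold change -3.66 ± 0.58 SE, adjusted p = 0.000138) and Bglap 11.6-fold lower (-3.54 ± 0.55, adjusted p = 0.000123), though the 2 near-identical genes cannot be separated by their probes with certainty. Col1a1, the main collagen of bone, ranged from 4.93 to 7.85 (median 5.48) at 24 weeks and from 6.73 to 10.3 (median 8.94) at 12 weeks. It was 6.71-fold lower (adjusted p = 0.000757) and was detected on 1 of 6 arrays at 24 weeks and on 9 of 9 at 12 weeks. In NeuT- marrow Bglap2 fell by 1.81 and Bglap by 1.79 on the log2 scale (adjusted p = 0.00573 and 0.00489), while the change of Col1a1, -1.24, did not pass (adjusted p = 0.105).

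Cplx2, a regulator of vesicle release, ranged from 5.74 to 7.77 (median 6.26) at 24 weeks and from 9.21 to 10.1 (median 9.39) at 12 weeks, with no overlap. It was 8.61-fold lower (adjusted p = 1.38e-06). Lgr5, a receptor for R-spondins known from intestinal stem cells, ranged from 5.06 to 6.64 (median 5.52) at 24 weeks and from 7.65 to 8.56 (median 8.25) at 12 weeks. These groups were fully apart as well (5.57-fold lower, adjusted p = 2.14e-06). The 24-week medians of Cplx2 and Lgr5 lie below 6.29, a level at which Rab27b was not detected on 12-week replicate 1. Both folds therefore rest in part on values near background. Tnfrsf19, Chst3, Tmem108, Cpm and Thbs1 were 5.41-fold to 4.84-fold lower, Slamf7, a receptor of the SLAM family on plasma and NK cells, was 4.84-fold lower, and Cd69, an early activation marker of lymphocytes, 4.82-fold lower. All 12 of the lowest genes, also chosen on these arrays, were called both in series 12 (13.4% of all genes) and outside it (17% of all genes). Of these 12, 9 did not overlap between the ages (14.1% of all genes). In NeuT- marrow all 12 were lower at 24 weeks and 4 were called, against 1.41% of all genes.

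**Figure D3:**
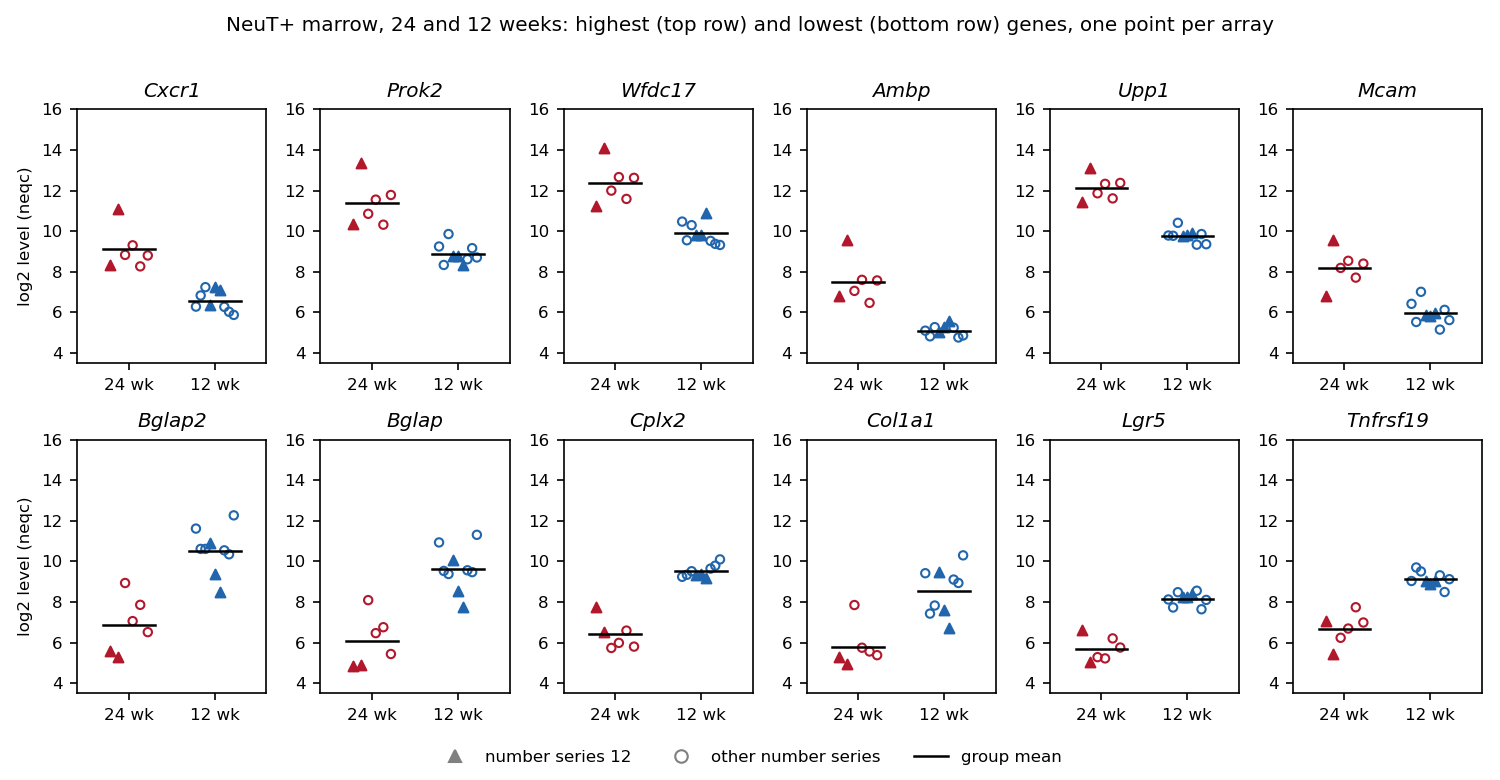
Log2 level of the 6 genes with the highest fold change (top row) and the 6 with the lowest (bottom row) in NeuT+ marrow, 24 weeks left and 12 weeks right, with a point for each array and a line for the group mean. Triangles are series 12 and circles the other number series, and the triangle far above the rest in Cxcr1 and Ambp is replicate 2.

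B-cell genes fell as a group. All 16 measured members of the B-cell development list were lower at 24 weeks, with a median log2 fold change of -1.78 against 0.0038 over all genes and a range of -2.05 to -1.07. The count was 16 of 16 in series 12 (median -2.25, where 13.4% of all genes were called lower), outside it (median -1.42, where 17% were) and without replicate 2 at 24 weeks (median -1.56). Ebf1, a transcription factor that commits progenitors to the B lineage, ranged from 7.01 to 8.08 (median 7.72) at 24 weeks and from 8.71 to 9.53 (median 9.36) at 12 weeks. It was 3.08-fold lower with no overlap (adjusted p = 3.50e-06). Il7r, the receptor for the cytokine on which mouse B-cell precursors depend, ranged from 8.33 to 9.55 (median 9.28) at 24 weeks and from 10.45 to 11.05 (median 10.75) at 12 weeks, 3.06-fold lower (adjusted p = 4.11e-06). Fcrla, an Fc receptor-like protein of B cells, was 4.01-fold lower, and Cd22, an inhibitory co-receptor of the B-cell receptor, 3.40-fold lower, both with no overlap. In NeuT- marrow the list's median was -0.52, or -0.73 without replicate 1 at 24 weeks, and none of the 16 was called, while 8 had an unadjusted p under 0.05, against 22.4% of all genes. The direct test of the difference between genotypes called none of the 16 after adjustment, with a median difference of -1.19. Before adjustment 15 of the 16 (93.8%) had a p under 0.05 in that test, against 1587 of all 11309 genes. The size of the change also differed between number series, with 6 of the 16 called in the test of series 12 against the other arrays (8.28% of all genes).

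Genes of antigen presentation and of plasmacytoid dendritic cells fell with them. Of 10 MHC class II genes, 7 were lower and 0 higher (median -0.73), in series 12 (8 lower, median -1.11) and outside it (6 lower, median -0.56). H2-Ob, part of the H2-O dimer that restrains peptide loading in B cells, ranged from 4.87 to 7.03 (median 5.62) at 24 weeks and from 7.14 to 8.27 (median 7.56) at 12 weeks. It was 3.67-fold lower (adjusted p = 7.12e-05). Its 24-week median lies below 6.29, a level at which Rab27b was not detected on 12-week replicate 1. The fold of H2-Ob therefore rests in part on values near background. Ciita, the master regulator of the class II genes, was 2.04-fold lower (adjusted p = 0.000134), H2-Eb1 1.74-fold and H2-Ab1 1.69-fold lower. In the dendritic cell list 6 of 7 measured genes were lower (median -0.75). Siglech, a surface receptor of plasmacytoid dendritic cells, ranged from 8.17 to 9.09 (median 8.81) at 24 weeks and from 9.48 to 10.1 (median 9.94) at 12 weeks, 2.02-fold lower with no overlap (adjusted p = 6.89e-05). Tcf4, the factor that these cells depend on, was 1.68-fold lower (adjusted p = 2.85e-05), Cox6a2 1.56-fold lower and Pacsin1 1.89-fold lower, though 1 of 2 other probes of Pacsin1 had the opposite sign. Neither list had a called member in NeuT- marrow, where 1.41% of all genes were called lower (medians -0.15 and -0.13). The direct test of the difference between genotypes called none of either list (medians -0.56 and -0.60). In that test 6 of 10 and 5 of 7 had an unadjusted p under 0.05, against 14% of all genes. Without replicate 2 at 24 weeks, 6 of the 10 class II genes were lower (median -0.64).

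The plasma cell list split. Of 10 measured genes 5 were lower and 4 higher (median -0.38). The lower ones included Slamf7, Irf4, a factor of lymphocyte and plasma cell differentiation (4.78-fold lower), and Pou2af1, a B-cell co-activator (3.36-fold lower, adjusted p = 1.79e-05), which B cells use too. Xbp1, the secretory factor of plasma cells, was 1.33-fold higher (adjusted p = 0.000255). Derl3, a component of the degradation pathway of the endoplasmic reticulum, was detected on 3 of 6 arrays at 24 weeks and on none at 12 weeks, at least 1.2-fold higher (adjusted p = 1.92e-05). Derl3 rose in NeuT- marrow as well, by 1.45 on the log2 scale (adjusted p = 0.000413), as did Ighg1, by 2.44 (adjusted p = 0.00161). The plasma cell median in NeuT- marrow was 0.16, with 3 genes called higher (2.25% of all genes) and 0 lower (1.41%). The direct test of the difference between genotypes called 1 of the 10 (median difference -0.99). Before adjustment 7 of the 10 had a p under 0.05 in that test, against 14% of all genes.

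Red-cell genes fell in 24-week marrow. Of 19 erythroid genes 18 were lower and 0 higher (median -1.41), and of 11 heme synthesis genes 9 were lower and 0 higher (median -0.93). Slc4a1, the anion exchanger of the red-cell membrane, ranged from 9.68 to 12.9 (median 12.5) at 24 weeks and from 13.6 to 14.9 (median 14.2) at 12 weeks. It was 4.49-fold lower with no overlap (adjusted p = 0.000362). Hemgn, an erythroid nuclear protein, ranged from 7.77 to 9.91 (median 9.44) at 24 weeks and from 10.4 to 11.7 (median 10.9) at 12 weeks, 3.33-fold lower (adjusted p = 0.000131). Klf1, the master factor of the late red-cell program, ranged from 8.62 to 11.6 (median 10.8) at 24 weeks and from 11.5 to 12.4 (median 11.8) at 12 weeks, 2.66-fold lower (adjusted p = 0.00207) with a slight overlap. Epor, the erythropoietin receptor, was 2.14-fold lower, and Tfrc, the transferrin receptor through which precursors take up iron, 1.76-fold lower.

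Replicate 2 weighed on the size of the red-cell change but not on the count. Its mean over the erythroid list lay 2.86 below the 12-week mean on the log2 scale, with the other 24-week arrays between 0.61 and 1.42 below. Without it 17 of 19 genes were lower and the median was -1.07. Hba-a1, an alpha globin gene with a near-identical copy, stood at 13.2 in replicate 2 and at 15.15 or above on the other 24-week arrays, against 15.88 to 15.97 at 12 weeks, near the top of the scale at 16.01. Among the heme genes, the mitochondrial iron carrier Slc25a37 was 1.90-fold lower (adjusted p = 1.28e-05), the glycine carrier Slc25a38 1.48-fold lower and the enzyme Urod 1.92-fold lower, with no overlap in any of these. Tmem14c was 1.38-fold lower. In series 12 the erythroid median was -2.16 (16 lower) and outside it -1.09 (16 lower). NeuT- marrow moved the same way to a smaller extent, with 7 erythroid and 6 heme genes called lower against 1.41% of all genes and medians of -0.58 and -0.48. No erythroid or heme gene was called for the difference between genotypes, where 15 of 19 and 3 of 11 had an unadjusted p under 0.05, against 14% of all genes.

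Granulocyte genes rose. Of 8 measured genes of the promyelocyte primary granule list 7 were higher and 0 lower (median 0.51), with 7 called outside series 12 and 3 within it. Ctsg, the protease cathepsin G, ranged from 15.2 to 15.6 (median 15.3) at 24 weeks and from 14.3 to 14.8 (median 14.7) at 12 weeks. It was 1.66-fold higher with no overlap (adjusted p = 1.45e-05). Cebpe, the factor that drives terminal granulocyte maturation, ranged from 13.4 to 13.7 (median 13.6) at 24 weeks and from 12.85 to 13.10 (median 12.99) at 12 weeks, 1.54-fold higher (adjusted p = 6.24e-06). Ms4a3, a marker of granulocyte and monocyte precursors, was 1.48-fold higher, Fcnb, a ficolin of immature neutrophils, 1.36-fold higher and Elane, neutrophil elastase, 1.21-fold higher (adjusted p = 0.00581). Mpo, the primary granule peroxidase, ranged from 15.92 to 15.97 at 24 weeks and from 15.85 to 15.99 at 12 weeks and did not pass (adjusted p = 0.598). Levels that close to the top of the array scale leave little room to show a rise.

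In the list of secondary granule and later neutrophil genes 7 of 15 were higher and 0 lower (median 0.24). Itgb2l, an integrin of maturing neutrophils, ranged from 11.4 to 12.2 (median 11.6) at 24 weeks and from 10.4 to 10.8 (median 10.7) at 12 weeks, 2.00-fold higher (adjusted p = 1.57e-05). Cd177, a neutrophil surface protein, was 1.70-fold higher, the gelatinase gene Mmp9 1.52-fold higher, and Csf3r, the G-CSF receptor, 1.85-fold higher, all with no overlap. Ltf and S100a8 again sat at the top of the scale (medians of 15.94 and 15.96 at 24 weeks, 15.95 and 15.93 at 12 weeks) and did not pass (adjusted p = 0.842 and 0.664). The other probe of Ltf had the opposite sign.

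Receptors and factors that govern granulocyte output rose together with the granule genes. Of the 15 genes of the granulopoiesis list 10 were higher and 0 lower (median 0.53). The list shares Cebpe, Gfi1, Csf3r, Csf1r, Cebpb and Stat3 with the other myeloid lists, so that these lists are not independent. Spi1, a transcription factor of myeloid commitment, ranged from 11.2 to 11.9 (median 11.6) at 24 weeks and from 10.2 to 10.8 (median 10.6) at 12 weeks. It was 2.05-fold higher with no overlap (adjusted p = 1.28e-05). Bcl3, an atypical IkB protein that limits emergency granulopoiesis, ranged from 9.04 to 10.45 (median 9.52) at 24 weeks and from 7.60 to 8.41 (median 8.17) at 12 weeks, 2.86-fold higher (adjusted p = 1.90e-05). Csf2ra, the GM-CSF receptor chain, was 1.61-fold higher. The list's median was 0.77 in series 12 (9 higher, where 10.2% of all genes were) and 0.50 outside it (9 higher and 2 lower, against 18.7% and 17% of all genes).

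In the myeloid suppressor list 6 of 12 measured genes were higher and 0 lower (median 0.64). Beside Wfdc17 these included the C-type lectin receptors Clec4e (2.13-fold, adjusted p = 3.67e-05) and Clec4d (1.87-fold, adjusted p = 2.60e-05) and the NADPH oxidase subunit Ncf1 (1.72-fold, adjusted p = 0.000153), none of which overlapped between ages. Of 8 monocyte genes 3 were higher. Fcgr1, the high-affinity IgG receptor, was 2.07-fold higher (adjusted p = 0.000105), Ccr2, the receptor by which monocytes leave the marrow, 1.70-fold higher and Csf1r 1.44-fold higher. Cx3cr1 did not pass (log2 fold change -0.69, adjusted p = 0.0641), and its sign differed between series 12 (0.31) and the arrays outside it (-1.2). In NeuT- marrow, 2 of 8 promyelocyte, 1 of 15 neutrophil and 2 of 15 granulopoiesis genes were called higher, against 2.25% of all genes, and the direct test of the difference called none of the members of these 5 lists (3 promyelocyte, 3 neutrophil, 5 granulopoiesis, 2 suppressor and 0 monocyte genes had an unadjusted p under 0.05, against 14% of all genes).

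Interferon-stimulated genes rose, both in series 12 and outside it. Type I interferons act through a complex that holds STAT2 and IRF9 and binds the interferon-stimulated response element in the promoters of antiviral genes. Of 22 measured genes of this list 15 were higher and 0 lower (median 0.57), with 12 higher in series 12 (median 0.93) and 11 outside it (median 0.49). The list mean lay 0.43 to 0.89 above the 12-week mean on the 24-week arrays and ranged from -0.35 to 0.46 on the 12-week arrays, a slight overlap. Among the 12-week arrays it was -0.35 to -0.25 in series 12 and 0.19 to 0.46 in series 15. Oas3, a synthetase of the antiviral oligoadenylate messenger, ranged from 9.17 to 9.99 (median 9.71) at 24 weeks and from 6.73 to 8.24 (median 7.84) at 12 weeks. It was 3.86-fold higher with no overlap (adjusted p = 6.27e-06). Oasl2, a related antiviral protein, ranged from 8.71 to 10.1 (median 9.20) at 24 weeks and from 6.22 to 8.07 (median 7.77) at 12 weeks, 3.73-fold higher (adjusted p = 0.000130). Oas2 was 2.99-fold higher (adjusted p = 3.63e-06) and Rtp4, an interferon-induced chaperone, 3.14-fold higher (adjusted p = 7.90e-06), both without overlap. Rtp4 was not detected on 12-week replicate 1 (5.80) at least, so that its fold rests in part on values near background. In NeuT- marrow the median was 0.12 and 0 of 22 genes were called (3 had an unadjusted p under 0.05, against 22.4% of all genes). The difference between genotypes had a median of 0.46 over the list and was called for none of its members. In that test 9 (40.9%) had an unadjusted p under 0.05, against 14% of all genes.

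Promoter windows of 300 bases around the annotated starts were taken from RefSeq (GRCm38.p6) for the 8 lists that had a motif assigned and in which most members, or as many as not, passed the test in 1 direction. They were searched on both strands for 1 or 2 motifs each, and the other lists were not searched. Matches of the different motifs may overlap. For the interferon list, 14 of 22 measured genes matched a promoter, and 10 of the 14 (71.4%) held GAAA, any 2 bases and GAAA again, the core of the response element, against 3.99% of all 27025 genes with a promoter. Of the 10 called genes with a promoter, 7 held it, and the uncalled members Bst2, Gbp3 and Rsad2 held it too. For the erythroid list, 15 of 19 genes matched and 6 (40.0%) held AGATAA, the core bound by GATA factors, against 12.7% of all genes, and 2 of 9 heme synthesis genes (22.2%) held it. These were 6 of the 14 called erythroid genes with a promoter and 1 of the 7 called heme genes. That heme gene, Alas2, is on both lists and is counted in both. TTGCNNAA, a C/EBP half-site pair, was in 3 of 7 promyelocyte promoters (42.9%) against 12.2%, all 3 among the 6 called. TCCC, any 2 bases and GGGA, the palindrome bound by EBF1, was in 1 of 13 B-cell promoters (7.69%) against 1.06%. In the cell cycle list CCAAT, bound by NF-Y, was in 14 of 18 promoters (77.8%) against 41.1%, and TTTGAA, the core of the cell cycle homology region, in 8 of 18 (44.4%) against 20.2%. Among the 10 called cell cycle genes with a promoter, 7 held the NF-Y motif and 3 the homology core. CCACGT, bound by XBP1, was in 2 of 9 plasma cell promoters (22.2%) and 2 of 13 promoters of the unfolded protein response (15.4%) against 9.40%. It was in 1 of 4 called lower plasma cell genes and in none of the 6 called higher genes of the unfolded protein response. A match describes letters in the window and is not a measure of binding.

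The called members with the smallest p and a match show where the letters lie. They are printed in the direction in which the RefSeq table gives them, with matches on either strand in capitals. Among the interferon genes, Oas3 lies at chr5:120777610-120777909 (minus strand), Oas1a at chr5:120907476-120907775 (minus strand) and Stat2 at chr10:128270248-128270547 (plus strand), and all hold the core of the response element. Oas1a was detected on 4 of 6 arrays at 24 weeks and on none of 9 at 12 weeks, at least 1.24-fold higher (adjusted p = 0.000460). It has near-identical neighbours, so that which copy moved is uncertain. Stat2 was 1.48-fold higher (adjusted p = 0.00216). Oas1a, Stat2 and Alas2 were chosen for printing after their values were seen.
Oas3: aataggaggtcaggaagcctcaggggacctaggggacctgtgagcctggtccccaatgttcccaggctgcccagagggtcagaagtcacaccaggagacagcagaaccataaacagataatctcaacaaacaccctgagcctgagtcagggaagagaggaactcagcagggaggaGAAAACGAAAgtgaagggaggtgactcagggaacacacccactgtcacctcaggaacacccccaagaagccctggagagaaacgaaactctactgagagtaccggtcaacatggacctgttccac
Oas1a: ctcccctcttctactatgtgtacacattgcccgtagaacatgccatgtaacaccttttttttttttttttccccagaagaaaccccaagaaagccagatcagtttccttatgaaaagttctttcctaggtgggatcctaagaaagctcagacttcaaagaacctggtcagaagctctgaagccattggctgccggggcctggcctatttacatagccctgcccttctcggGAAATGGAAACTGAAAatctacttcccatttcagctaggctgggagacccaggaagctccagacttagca
Stat2: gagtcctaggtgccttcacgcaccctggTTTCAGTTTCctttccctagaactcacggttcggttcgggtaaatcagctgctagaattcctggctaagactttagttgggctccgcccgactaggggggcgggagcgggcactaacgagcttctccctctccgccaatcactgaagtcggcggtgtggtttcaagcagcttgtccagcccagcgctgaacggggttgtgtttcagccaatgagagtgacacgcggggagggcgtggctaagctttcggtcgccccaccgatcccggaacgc
Among the genes that fell, Hemgn at chr4:46404134-46404433 (minus strand), Epor at chr9:21963527-21963826 (minus strand) and Alas2, the rate-limiting enzyme of heme synthesis in red cells, at chrX:150547167-150547466 (plus strand) hold AGATAA. Alas2 was 4.28-fold lower (adjusted p = 0.000671), with no overlap.
Hemgn: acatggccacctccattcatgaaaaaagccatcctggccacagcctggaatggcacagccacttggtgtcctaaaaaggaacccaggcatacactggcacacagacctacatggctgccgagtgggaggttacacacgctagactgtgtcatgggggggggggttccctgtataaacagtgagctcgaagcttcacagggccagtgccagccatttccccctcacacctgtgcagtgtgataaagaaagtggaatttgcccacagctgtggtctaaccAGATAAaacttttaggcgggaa
Epor: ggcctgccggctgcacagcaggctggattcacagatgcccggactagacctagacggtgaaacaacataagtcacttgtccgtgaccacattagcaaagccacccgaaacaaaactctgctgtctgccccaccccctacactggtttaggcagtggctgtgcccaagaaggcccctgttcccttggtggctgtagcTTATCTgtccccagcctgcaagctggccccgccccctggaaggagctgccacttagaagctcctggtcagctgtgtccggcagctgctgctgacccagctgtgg
Alas2: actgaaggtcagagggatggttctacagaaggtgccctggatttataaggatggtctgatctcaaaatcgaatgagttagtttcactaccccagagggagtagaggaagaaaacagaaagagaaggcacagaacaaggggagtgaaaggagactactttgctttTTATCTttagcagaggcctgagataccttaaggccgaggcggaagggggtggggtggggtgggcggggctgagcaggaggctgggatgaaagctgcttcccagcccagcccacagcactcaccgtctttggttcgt
Cd22 at chr7:30878979-30879278 (minus strand) holds the EBF1 palindrome, and Ms4a3 at chr19:11640802-11641101 (minus strand), which rose, holds TTGCNNAA.
Cd22: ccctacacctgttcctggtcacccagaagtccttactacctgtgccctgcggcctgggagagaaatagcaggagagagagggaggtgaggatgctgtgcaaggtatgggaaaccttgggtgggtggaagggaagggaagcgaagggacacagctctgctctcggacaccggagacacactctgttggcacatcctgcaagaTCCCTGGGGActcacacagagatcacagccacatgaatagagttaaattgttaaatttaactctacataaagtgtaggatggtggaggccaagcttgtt
Ms4a3: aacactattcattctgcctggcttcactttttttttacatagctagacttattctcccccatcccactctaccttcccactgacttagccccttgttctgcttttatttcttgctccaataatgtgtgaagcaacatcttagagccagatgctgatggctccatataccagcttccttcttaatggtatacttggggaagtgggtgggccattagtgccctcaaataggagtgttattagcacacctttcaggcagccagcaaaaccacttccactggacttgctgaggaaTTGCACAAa

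**Figure D4:**
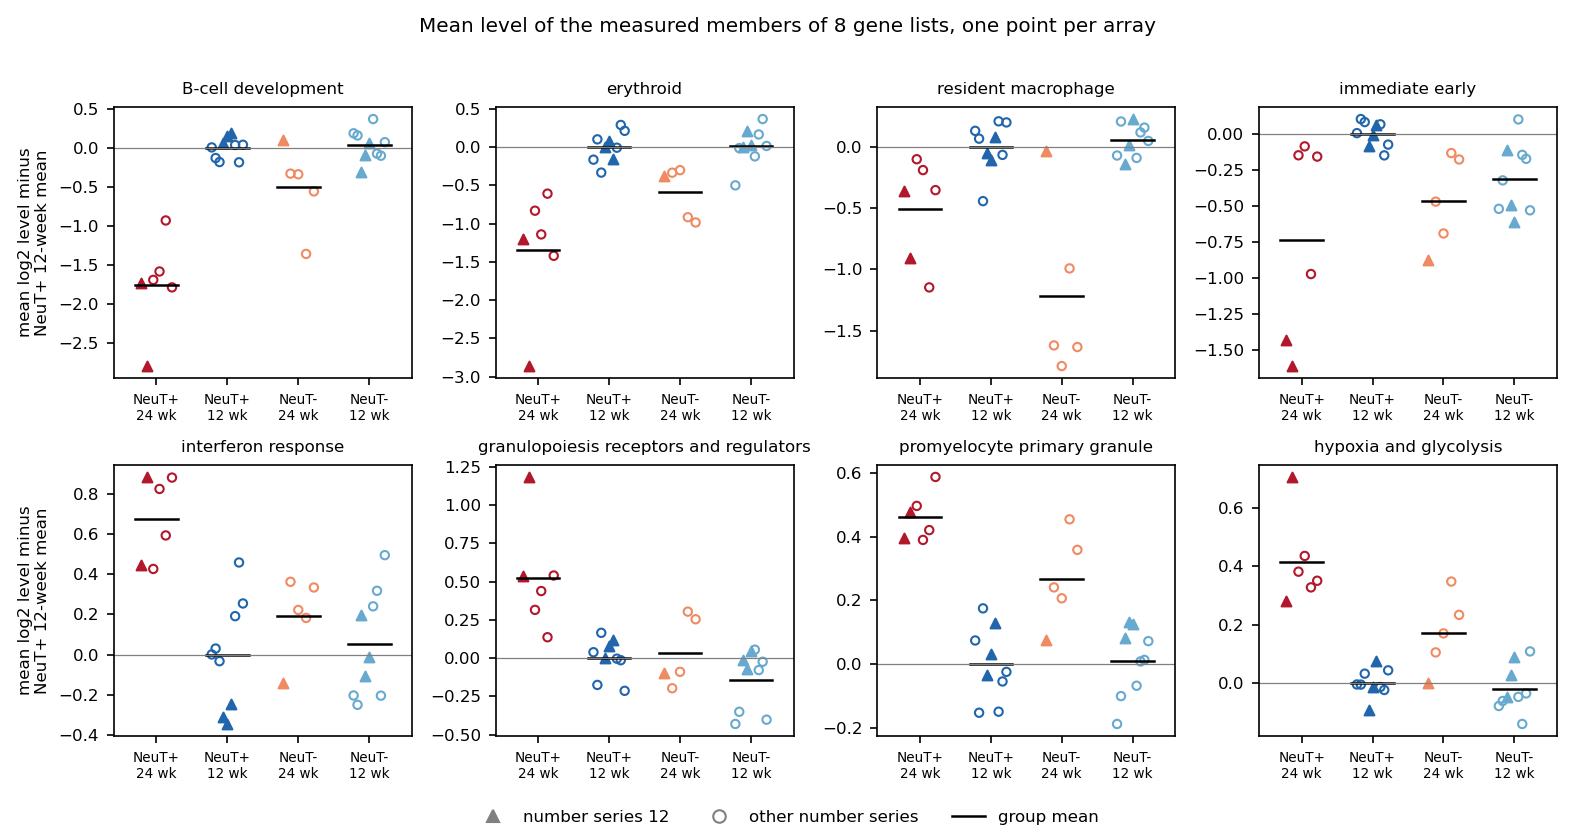
Mean log2 level of the measured members of 8 gene lists, each relative to the NeuT+ 12-week mean, for NeuT+ 24 weeks, NeuT+ 12 weeks, NeuT- 24 weeks and NeuT- 12 weeks from left to right, with a point for each array and a line for the group mean. B-cell means were 2.8 to 0.93 lower at 24 weeks in NeuT+ marrow, where erythroid means also moved apart and interferon means overlapped slightly. Resident macrophage means reached 1.15 below in NeuT+ and 1.79 below in NeuT- marrow.

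Genes of resident macrophages fell in both genotypes. Of 15 measured genes 9 were lower and 0 higher at 24 weeks in NeuT+ marrow (median -0.60), against 10 lower and a median of -1.56 in NeuT- marrow. The list means of the NeuT+ arrays overlapped between 24 weeks (-1.15 to -0.103) and 12 weeks (-0.444 to 0.205). Among the 24-week NeuT- mice, the list mean was -0.039 in the mouse of series 12. It was -1.79 to -0.99 in those of series 13, all relative to the NeuT+ 12-week mean. Spic, a factor of iron-recycling macrophages, ranged from 6.499 to 8.14 (median 7.26) at 24 weeks and from 7.82 to 8.96 (median 8.66) at 12 weeks, 2.30-fold lower (adjusted p = 0.000941) with some overlap. Axl and Mertk, receptors for the uptake of dying cells, were 1.76-fold and 1.65-fold lower, and Mrc1, the mannose receptor, 1.85-fold lower. The 4 genes fell by 1.93, 1.80, 1.66 and 1.42 on the log2 scale in NeuT- marrow for Spic, Axl, Mertk and Mrc1. The direct test of the difference called none of the 4 (adjusted p = 0.495, 0.183, 0.235 and 0.485) and none of the list (median difference 0.86). In that test 8 of 15 had an unadjusted p under 0.05, against 14% of all genes. Replicate 2 again weighed on the count of lower genes in NeuT+ marrow, which was 7 without it and 4 outside series 12.

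Of 15 stromal and matrix genes 4 were lower (median -0.29), with 8 lower outside series 12 (median -0.52) and 2 within it (median -0.05). In NeuT- marrow the median of this list was -0.43. Sparc, a matrix glycoprotein, ranged from 5.51 to 7.26 (median 6.56) at 24 weeks and from 6.88 to 9.63 (median 8.32) at 12 weeks, 3.38-fold lower (adjusted p = 0.00111), but was not called in series 12 (log2 fold change -1.18, adjusted p = 0.151). Dcn, the proteoglycan decorin, was 3.96-fold lower (adjusted p = 0.00188) but changed by only -0.31 in series 12, against -2.82 outside it. Col5a1 was 1.65-fold lower. Of 9 osteoblast genes 3 were lower and 1 higher (median -0.17, against -0.14 in NeuT- marrow). Beside Bglap and Bglap2, Ibsp, bone sialoprotein, was detected on no array at 24 weeks and on 6 of 9 at 12 weeks, at least 1.05-fold lower, and its other probe had the opposite sign. Ifitm5, a membrane protein of mineralizing osteoblasts, was 2.25-fold higher (adjusted p = 0.000553). It was not detected on 12-week replicate 1 (6.12) at least, so that its fold rests in part on values near background.

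Of 6 osteoclast genes 3 were higher and 1 lower. The higher ones were Ctsk, the bone-degrading protease, at 2.51-fold (adjusted p = 0.00998), Tcirg1 at 1.30-fold and Nfatc1 at 1.27-fold. Ctsk was not detected on 12-week replicate 1 (5.46) at least, so that its fold rests in part on values near background. Acp5 was 1.48-fold lower in fitted values and was detected on 0 of 6 arrays at 24 weeks and 2 of 9 at 12 weeks. The osteoclast median was 0.26, against 0.16 in NeuT- marrow. In the endothelial list 6 of 12 were lower and 1 higher (median -0.42). Pecam1, which blood cells share with endothelium, was 1.64-fold lower (adjusted p = 0.000346), Stab2, a scavenger receptor of sinusoids, 1.56-fold lower and the angiopoietin receptor relative Tie1 1.70-fold higher. Without replicate 2 at 24 weeks 5 were lower and 1 higher (median -0.25). In NeuT- marrow the endothelial median was -0.05. Cldn5 was called lower as well but was detected on no array. In the adipocyte list 4 of 5 were lower (median -0.68), with 3 of 5 called outside series 12 and none within it. They were Lpl (1.72-fold), Pparg (1.60-fold), Adipoq (1.82-fold, detected on 1 of 6 and 7 of 9 arrays) and Car3, which was near background. NeuT- marrow fell as far over the adipocyte list (median -0.68), with a median difference between genotypes of 0.08. Of 5 skeletal muscle genes, which mark muscle carried over with the bone, 1 was higher (Tnni2, 1.40-fold) and 1 lower (Mylpf, 1.43-fold), while Acta1 and Pvalb were detected on none of the 15 arrays.

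Transcripts of mammary epithelium were mostly below detection. Of 9 measured genes 0 were called by limma (median 0.01, with 1 at an unadjusted p under 0.05) and 7 were detected on none of the 15 arrays. Krt14 and Csn3 were among the 7, Esr1 was detected on 1 of 6 arrays at 24 weeks and 2 of 9 at 12 weeks, and Cdh1, which red-cell precursors also express, on all 15. The Erbb2 probe, which was designed on the mouse gene and may not report the rat transgene, was not above background at either age (adjusted p = 0.532).

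Eosinophil and mast cell genes were lower in 4 of 9 cases (median -0.89), with 1 lower in series 12 and 5 outside it. The list means of the 12-week arrays were -0.63 to -0.25 in series 12 and 0.04 to 0.41 in series 11 and 15. Those of the 24-week arrays were -1.87 to -0.19. Ccr3, the eotaxin receptor, was detected on none of the 24-week arrays and on all 9 of the 12-week arrays, at least 1.14-fold lower (adjusted p = 4.61e-06). Ear6, Prg2 and Prg3, which encode eosinophil granule proteins, were 2.29-fold, 1.85-fold and 2.34-fold lower. The call of Prg3 was lost under 14 of 29 alternative settings, with an adjusted p of 0.085 without replicate 2 at 24 weeks. Without that array 3 of the 9 genes were lower (median -0.63). Megakaryocyte genes were called higher in 3 of 15 cases (median 0.46), near the share of all genes (19.4%). In series 12 there were 3 higher, and outside it 0 higher and 1 lower. The means over this list were 0.0963 to 0.922 on the 24-week arrays and overlapped those of 12 weeks (-0.725 to 0.624). F2rl2, a thrombin receptor, was 1.81-fold higher, a call lost without series 12. Gp1bb, of the von Willebrand receptor, was 1.53-fold higher. The call of Gp1bb was lost under 18 of 29 alternative settings. Rab27b was 1.39-fold higher in fitted values and was detected on 1 array of 15. Vwf and Pf4 did not pass (log2 fold changes 0.53 and 0.50, adjusted p = 0.130 and 0.290). Stem and progenitor genes were lower in 4 of 13 cases (median -0.17, against -0.18 in NeuT- marrow). They were led by Sox4, a factor that lymphoid precursors share, at 4.74-fold lower (adjusted p = 2.21e-06). Gata2 (1.45-fold), Egfl7 (1.35-fold) and the stem cell factor receptor Kit (1.26-fold) followed.

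T and NK cell genes were mixed, with 3 of 13 higher and 5 lower (median -0.18). Nkg7, a cytotoxic granule protein, was 1.57-fold higher (adjusted p = 5.12e-05), Cd3d 1.37-fold and Cd8b1 1.32-fold higher, while Cd2, which B-cell precursors of the mouse also carry, was 2.95-fold lower (adjusted p = 0.000200). Both other probes of Cd8b1 had the opposite sign. Cd3e did not pass (log2 fold change -0.18, adjusted p = 0.658). Its value was 5.397 in replicate 2 at 24 weeks and 7.125 or above on the other 24-week arrays, and without replicate 2 the change was 0.18. The list then had 3 higher and 4 lower genes (median -0.06).

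Proliferation genes fell by small amounts. Of 22 cell cycle genes 12 were lower and 0 higher (median -0.30), with 8 in series 12 (median -0.47) and 10 outside it (median -0.24). In NeuT- marrow the cell cycle median was -0.17. Mcm2 and Mcm4, subunits of the replicative helicase, were 1.58-fold and 1.54-fold lower, E2f1, a factor of S-phase entry, 1.46-fold lower and Birc5, survivin, 1.42-fold lower, with no overlap between ages. Glycolysis and hypoxia genes rose, 9 of 12 with 0 lower (median 0.46), with 3 called in series 12 (median 0.47) and 8 outside it (median 0.49). Their median in NeuT- marrow was 0.23. The glycolytic enzymes Aldoa and Pgk1 were 1.60-fold and 1.47-fold higher, Egln3, an oxygen sensor, 1.83-fold higher and Ndrg1 1.44-fold higher.

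The unfolded protein response split between 7 higher and 3 lower of 14 genes (median 0.43). Chac1, a glutathione-degrading enzyme induced by stress, ranged from 8.17 to 9.12 (median 8.41) at 24 weeks and from 5.95 to 7.18 (median 6.92) at 12 weeks, 3.16-fold higher with no overlap (adjusted p = 8.69e-06). Sdf2l1 was 1.77-fold higher, and Herpud1, of the degradation machinery, 1.68-fold lower (adjusted p = 9.35e-05). The median was 0.09 in series 12, 0.52 outside it and 0.17 in NeuT- marrow.

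Immediate early genes, which respond within minutes to signals and to cell handling, differed most between the number series among the 29 lists, by share of called genes. Of 20 genes 8 were lower and 0 higher (median -0.83). In series 12, 15 were lower and 1 higher (median -1.55), against 5 lower and 1 higher outside it (median -0.19), and 9 of the 20 were called in the direct test of that difference (8.28% of all genes). The list mean was 1.61 to 0.09 below the 12-week mean on the 24-week arrays, and the 2 lowest values were those of series 12. Klf6 was 1.99-fold lower (adjusted p = 7.63e-05), Dusp2 3.24-fold, Jund 2.57-fold and Nr4a2 2.22-fold lower, and these 4 were called in both sets of arrays. Without replicate 2 at 24 weeks 6 of the 20 were lower (median -0.47). Inflammatory genes were lower in 4 of 19 cases and higher in 2 (median -0.20), which included the chemokine gene Ccl4 (3.66-fold lower), the NF-kB brake Tnfaip3 (3.45-fold lower) and the co-stimulatory receptor Cd40 (2.69-fold lower, with 1 of 3 other probes of opposite sign). Il1rn, the interleukin 1 receptor antagonist, was 1.46-fold higher.

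Several calls named above were lost both in series 12 alone and with the number series as a fixed block. Beside Sparc, Dcn, Ibsp, Prg3 and Gp1bb these were Elane, Fcnb, Sdf2l1, Tie1, Tnni2, Tcirg1, Cd8b1 and Rab27b among the genes that rose and Kit, Lpl, Pparg, Adipoq, Ear6, Car3 and Acp5 among those that fell.

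**Figure D5:**
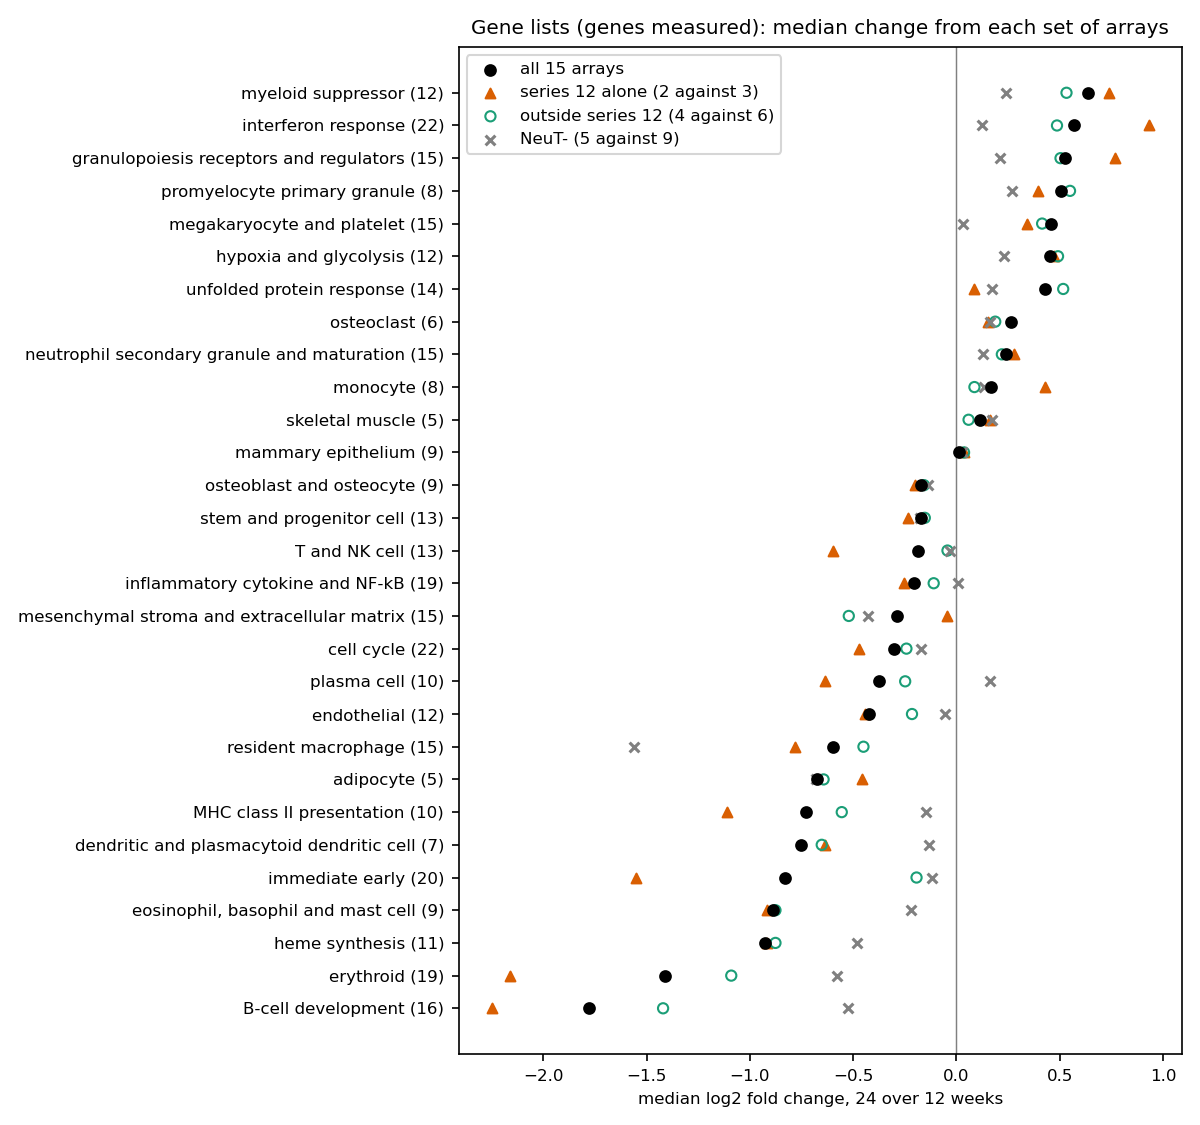
Median log2 fold change of 24 over 12 weeks for each of 29 gene lists, with the number of genes measured in brackets, from all 15 NeuT+ arrays (black), series 12 alone (triangles), the arrays outside it (open circles) and NeuT- marrow (crosses). All 29 medians had the same sign in series 12 and outside it, and the gap between the 2 was widest for immediate early genes.

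The change with age in NeuT+ marrow was set against that in NeuT- marrow in a direct test. NeuT- marrow called 414 genes (3.66%) between 24 and 12 weeks, and 1599 (14.1%) without replicate 1 at 24 weeks (7.87% higher and 6.27% lower), the 1 NeuT- mouse of series 12 at that age, whose profile lay closest to the 12-week NeuT- mean. Of the 4486 genes called in NeuT+ marrow, 95.5% had the same sign in NeuT- marrow, against 78.4% of all genes. Among the 29 gene lists, 27 had a median of the same sign in NeuT- marrow. Series 13 holds most 24-week mice of both genotypes, so that what it shares enters both sides. The change differed between the genotypes for 14 genes (0.124%), 4 (0.0354%) with a higher and 10 (0.0884%) with a lower change in NeuT+ marrow. These calls depended on single arrays: leaving out 1 mouse at a time gave 0 to 53 higher and 0 to 168 lower, and none in either direction without NeuT- replicate 2 at 24 weeks.

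In 9 genes that test was called and the detection rule for naming was met. Their fitted values moved the same way in both genotypes, and farther in NeuT+ marrow. Irf4 ranged from 8.34 to 10.1 (median 9.69) at 24 weeks and from 11.1 to 12.2 (median 11.8) at 12 weeks in NeuT+ marrow, a change of -2.26 against -0.59 in NeuT- marrow (difference -1.67 ± 0.34 SE, adjusted p = 0.0413). Epha2, an ephrin receptor, changed by -1.93 against -0.27 (difference -1.66, adjusted p = 0.0278). Smtnl2 was detected on no NeuT+ array at 24 weeks and on all 9 at 12 weeks, at least 1.63-fold lower, and the difference of fitted values, -1.40 (adjusted p = 0.0204), rests on a group not above background. St6gal1, a sialyltransferase that B cells express strongly, differed by -1.24 and Camk2d, a calcium-dependent kinase, by -1.24 (adjusted p = 0.0413 each). Slc32a1, a vesicular transporter of GABA and glycine, differed by 1.12 (adjusted p = 0.0151). It was not detected on NeuT+ 12-week replicate 1 (6.09) or on NeuT- 12-week replicates 1 and 2 (5.91 and 5.84) at least. This difference therefore rests in part on values near background. Gm5294 differed by 1.12 in fitted values (adjusted p = 0.0278), although it was detected on no 12-week array and on no NeuT- array of either age. Ifitm1, an interferon-induced membrane protein, ranged from 15.1 to 15.8 (median 15.3) at 24 weeks and from 13.96 to 14.37 (median 14.25) at 12 weeks in NeuT+ marrow, a change of 1.11 against 0.39 (difference 0.72 ± 0.15 SE, adjusted p = 0.0413). Pram1, an adaptor of the myeloid lineage, changed by 1.14 against 0.44 (difference 0.70, adjusted p = 0.0413). The 9 were chosen by a test that uses these same NeuT+ arrays, so that the following counts are a description. All 9 did not overlap between the ages in NeuT+ marrow (14.1% of all genes). They were also called in series 12 (23.5% of all genes) and outside it (35.7% of all genes).

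Peg3, an imprinted zinc finger gene, ranged from 9.71 to 11.8 (median 10.1) at 24 weeks and from 11.7 to 12.5 (median 12.2) at 12 weeks in NeuT+ marrow. It was 3.28-fold lower (adjusted p = 0.000179) with a slight overlap. The change was -2.35 outside series 12 (adjusted p = 1.80e-06) and -0.43 within it (adjusted p = 0.190). In NeuT- marrow the probe was near background, at 5.47 to 6.02 (detected on 0 of 5 arrays) at 24 weeks and at 5.29 to 6.76 (detected on 1 of 9) at 12 weeks. No NeuT- change of Peg3 and no difference between genotypes is therefore given.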

How the data were processed

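Marrow RNA, extracted with Trizol and of RNA integrity above 7 per the labels' protocols, was hybridised to Illumina mouseWG-6 v2.0 arrays. The authors deposited raw bead intensities with a detection p-value per probe, exported from BeadStudio 3.3.8, and log2 values normalized with the lumi robust spline method, per the series' design text. The labelling kit is named differently in the design text and the labels and is not settled here.

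Intensities were background-corrected and quantile-normalized over 52 arrays with neqc of limma 3.58.1 (R 4.3.3, offset 16). Probes detected at p under 0.01 on 1 array or more were kept (21592 of 45281), and the brightest probe was taken for each of 11309 genes. Symbols came from the platform annotation, updated by Entrez identifier or accession: 34885 probes had 1 symbol, 18 several and 10378 were not listed. limma was fitted to the 15 NeuT+ arrays without a block, and to 29 arrays with group weights for the difference between genotypes. P-values were adjusted by Benjamini-Hochberg over all genes, with a threshold of 0.05. Groups come from the labels. Every array is a separate animal. Levels of some genes differed between number series, which the fit without a block does not take into account, so that its p-values may overstate precision. No 2 NeuT+ arrays were duplicates (highest correlation 0.995). Named genes were the 12 highest and 12 lowest called fold changes, up to 5 called differences in each direction, up to 4 members of each list by p, and defining markers. Members and lists were chosen with earlier results of these data known. The fits were tested on simulated data with known changes before use. Promoters were searched in Python 3.11.15. Deposited log2 values, other scalings, filters, number series blocks and left-out arrays were tried as alternatives.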

Additional observations from a re-analysis of the deposited data

Results flagged for a closer look

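In 39 of 360 groups of arrays, 1 array lay farther from its neighbours than the usual spread allows by Dixon's test, which chance alone gives in about 1 in 20 groups. NeuT+ replicate 2 at 24 weeks was this array in many of them. Its log2 level was the highest of the 6 arrays, given here with the nearest other array, for Cxcr1 11.09 (nearest 9.304), Ambp 9.56 (nearest 7.603), Cstdc6 10.08 (nearest 7.618), Stfa2 15.44 (nearest 13.98) and Acta1 5.911 (nearest 4.998). It was the lowest for Il7r 8.329 (nearest 9.105), Pou2af1 9.986 (nearest 11.04), Epor 7.179 (nearest 8.288), Slc4a1 9.68 (nearest 12.14), Gata2 9.341 (nearest 10.43), Hba-a1 13.15 (nearest 15.15) and Cd3e 5.397 (nearest 7.125). The same array also had the lowest mean against the 12-week level over several gene lists, namely plasma cell -1.1 (nearest -0.504), erythroid -2.86 (nearest -1.42), eosinophil, basophil and mast cell -1.87 (nearest -0.688) and endothelial -0.64 (nearest -0.156), and the highest over the list of hypoxia and glycolysis 0.706 (nearest 0.436). It belongs to series 12.

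Other 24-week arrays stood apart in single genes, replicate 3 as the highest for Col1a1 7.854 (nearest 5.752), replicate 5 as the lowest for Mertk 6.258 (nearest 7.181), replicate 1 as the highest for Dcn 7.199 (nearest 5.518) and replicate 1 as the highest for Esr1 6.539 (nearest 5.501). Among the 9 arrays of 12 weeks, replicate 8 was lowest for Tmem108 8.253 (nearest 8.746), replicate 7 was lowest for Smtnl2 6.637 (nearest 7.12) and Derl3 4.989 (nearest 5.425), replicate 2 was lowest for Fcnb 13.45 (nearest 13.69), Ebf1 8.709 (nearest 9.171), Chac1 5.947 (nearest 6.579) and Elane 15.23 (nearest 15.45) and replicate 3 was lowest for Axl 10.86 (nearest 11.56), Tmem14c 13.88 (nearest 14.06), Pparg 7.033 (nearest 7.661), Tnni2 7.824 (nearest 8.094), Mylpf 7.619 (nearest 8.154) and Erbb2 4.908 (nearest 5.081). In addition replicate 6 was lowest for Ccr3 6.337 (nearest 6.627), replicate 1 was highest for Pvalb 5.265 (nearest 4.922), replicate 7 was highest for Tnfaip3 11.9 (nearest 11.18) and replicate 2 was highest for Krt8 6.053 (nearest 5.604). Replicate 3 at 12 weeks was also lowest over the list of resident macrophage -0.444 (nearest -0.11).

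The change between 24 and 12 weeks differed between NeuT+ and NeuT- marrow by the direct limma test in 9 named genes. The log2 difference was positive for Gm5294 1.12, Slc32a1 1.12, Ifitm1 0.719 and Pram1 0.697. It was negative for Irf4 -1.67, Epha2 -1.66, Smtnl2 -1.4, St6gal1 -1.24 and Camk2d -1.24. The values of Smtnl2 and Gm5294 are differences of fitted values in which at least 1 group was not above background. All of them were lost without NeuT- replicate 2 at 24 weeks.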

How the results depend on the processing

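The counts of genes that rose and fell kept within 1.5 times of 2199 and 2287 under every alternative run except series 12 alone, which gave 1153 higher and 1510 lower genes with 5 arrays. Leaving out 1 array at a time gave 1943 to 2321 higher and 1991 to 2307 lower genes. With the number series as a fixed block, where only series 12 informs the age change, 1594 rose and 2026 fell, and median scaling gave 1608 and 2375, which moved the share of higher calls to 40.4% against 49.0% and the median of all genes to -0.06. The share of genes called outside series 12 that kept their sign within it was 81.7% to 82.2% under 3 other settings.

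The count of genes whose age change differed between NeuT+ and NeuT- marrow (4 higher, 10 lower) was not stable. It was 2 and 6 with the deposited log2 values and also with no detection filter, 0 and 0 with median scaling, 20 and 105 in the fit of all 47 mice, 148 and 371 in series 12 alone, and 31 and 75 with the series as a random block. It fell to 5 lower with no background correction, and was 18 higher without the 2 arrays that stand apart, a setting chosen after seeing the data. Leaving out 1 array gave 0 to 53 higher and 0 to 168 lower, the lowest without NeuT- replicate 2 and the highest without NeuT- replicate 4 at 24 weeks.

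Some signs turned, the cause of which was not tested. In series 12 alone and with the fixed block, Cx3cr1 was 0.31, Esr1 0.49, Csn3 -0.0321, Erbb2 0.0263, Ltf 0.0062 and S100a8 -0.0279. Median scaling turned Cdh1 (-0.11) and Ltf (0.14), and the mean of probes turned Cd8b1 (-0.27) and Ltf (0.36). Cd3e was 0.0616 with array weights, 0.33 without series 12 and between -0.33 and 0.18 when 1 array was left out. The adipocyte median was 0.0376 with no detection filter, the skeletal muscle median -0.0165 with probes on 6 or more arrays, and the mammary median lay between -0.0486 and 0.0973 when 1 array was left out, with -0.0022, -0.0176 and -0.0179 among its values. No paired analysis was possible because replicate numbers were given in accession order and mark no shared animal, litter or day. Levels near the top of the scale and probes near background limit what can be seen.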
